A study of Homo sapiens with 6 samples.

Results

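Glycolysis is the chain of reactions that splits glucose into pyruvate in the cytosol, and lactate dehydrogenase then turns pyruvate into lactate. Glucose enters the cell through transporters, hexokinase traps it as glucose 6-phosphate, and phosphofructokinase commits it to the pathway. Many of these genes are textbook targets of hypoxia-inducible factor and of the MYC proteins, and tumour cells are known for using them heavily. The 10 genes described here are the glucose transporter SLC2A1, the hexokinases HK1 and HK2, the phosphofructokinase PFKP, the aldolase ALDOA, the phosphoglycerate kinase PGK1, the enolases ENO1 and ENO2, the pyruvate kinase PKM and the lactate dehydrogenase LDHA. They were taken as a named list, chosen with earlier results of these data known. They are 10 of the 58302 genes in the expression tables, with gene identifiers matched to symbols through GENCODE 29. All 10 had a mean of at least 1 FPKM (fragments per kilobase of exon, scaled by a factor per sample) and so were among the 14462 genes tested.

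RNA was sequenced from SK-N-BE(2), a human neuroblastoma cell line, in 3 samples transfected with a control siRNA (NC) and 3 transfected with an siRNA against Prp19 (siPrp19), with replicates numbered 1 to 3 in each group. All 6 were cultured in MEM/F12 medium with fetal bovine serum and, according to the labels, collected 72 h after transfection, while the study's methods give a shorter time. Prp19, encoded by PRPF19, is a core factor of the spliceosome and a ubiquitin ligase. The study asked which genes respond to its knockdown. The model is a single line with a transient knockdown by a single siRNA. What the replicate numbers mark, whether days, passages or library batches, is not given in the sources used here.

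About 19058774 to 24181789 reads per sample lay on genes, as recovered from the FPKM values. PRPF19 was 53.1, 53.1 and 64.9 FPKM in NC replicates 1, 2 and 3 and 21.8, 28.5 and 33.6 with siPrp19, so the groups did not overlap and the knocked-down mean was 49.0% of NC (exact two-sided permutation p = 0.1, the smallest that 3 against 3 samples allow). All 12 adrenergic neuroblastoma markers were expressed at a mean of at least 1 FPKM, with summed levels of 2224 to 2381 FPKM in NC and 2126 to 2715 FPKM in siPrp19. A large part of each sum was MYCN. Single markers moved within these sums, 9 of the 12 being lower and 2 higher in replicate 3 than in 2 by limma. Over all 14462 genes tested, 3543 were lower (24.5%) and 3311 higher. Mesenchymal neuroblastoma markers summed to 281 to 370 FPKM and Schwann or stromal markers to 44.8 to 57.9 FPKM. Endothelial markers summed to at most 0.124 FPKM, blood markers to at most 15.6 FPKM and epithelial markers to at most 3.02 FPKM. Reads of mitochondrial genes made up 5.06% and 5.39% of the reads on genes in the replicate 3 samples of NC and siPrp19 and 2.74% to 3.09% in the other 4 samples, and the part of this difference in the results below was not tested.

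The hypoxia-inducible factors and the MYC proteins bind short DNA motifs, and a few start regions are shown because the members moved together and because LDHA, which did not move with them, carries the same motifs. Capitals mark the core of the hypoxia response element, ACGTG or GCGTG, searched on both strands (CACGT and CACGC on the other). The E-box CACGTG contains this core on both strands and therefore counts as 2 overlapping matches. The sequences are upstream of RefSeq starts on the plus strand of GRCh38.p14, written 5′ to 3′, and stop where a GENCODE 29 exon begins. They are HK2 at chr2:74834920-74835169 (6 matches), PFKP at chr10:3068939-3069188 (1 match), PGK1 at chrX:78103998-78104173 (3 matches) and LDHA at chr11:18394313-18394387 (2 matches).
HK2: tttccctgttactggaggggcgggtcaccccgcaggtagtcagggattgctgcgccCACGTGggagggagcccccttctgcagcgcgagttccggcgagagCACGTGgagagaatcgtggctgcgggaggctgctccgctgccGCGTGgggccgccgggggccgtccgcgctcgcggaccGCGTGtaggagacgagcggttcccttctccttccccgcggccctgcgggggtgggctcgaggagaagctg
PFKP: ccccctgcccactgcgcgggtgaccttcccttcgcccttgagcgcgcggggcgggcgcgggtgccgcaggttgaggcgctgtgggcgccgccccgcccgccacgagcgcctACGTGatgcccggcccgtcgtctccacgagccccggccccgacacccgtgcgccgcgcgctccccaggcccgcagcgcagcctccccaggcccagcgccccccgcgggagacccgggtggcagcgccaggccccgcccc
PGK1: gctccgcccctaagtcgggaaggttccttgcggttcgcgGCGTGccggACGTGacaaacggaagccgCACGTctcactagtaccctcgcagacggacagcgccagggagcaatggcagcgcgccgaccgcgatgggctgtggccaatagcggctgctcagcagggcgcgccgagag
LDHA: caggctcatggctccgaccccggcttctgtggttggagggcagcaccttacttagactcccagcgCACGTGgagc
RefSeq listed 23 windows of 250 bases upstream of starts for the 10 members, counting alternative starts. The core occurred in 13 of them (56.5%), beside 56.4% of the 13544 windows of all genes tested and 43.2% of all 35116 windows. CACGTG occurred in 3 of the 23 member windows (13.0%) and in 8.55% of those of the genes tested. The listed windows of SLC2A1 and PKM held no core, and the longer LDHA window from which the stretch was taken held 5. HK2, PFKP and LDHA have other listed starts. The other HK2 window, at chr2:74833877-74834126, held 3 matches and no CACGTG. The other PFKP windows held 0 to 3 matches and the other LDHA window 1. HK1 had more listed windows than any other member, and most of them held no core. The share of member windows therefore depends in part on the alternative starts of this gene. The presence of these letters is a description of the sequence and is no evidence of binding, and their absence from a window of this length says only that the letters are not in it.

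The glycolysis genes differed between replicate numbers and not measurably between NC and siPrp19. In both groups, 9 of the 10 members were highest in replicate 2, intermediate in replicate 1 and lowest in replicate 3, whereas LDHA was low in all samples. SLC2A1 showed the widest spread, 15.3-fold between replicates 2 and 3 of NC and 13.5-fold between those of siPrp19, and HK2 followed with 7.20-fold and 7.76-fold. PKM had the smallest of the 9 spreads, 2.19-fold in NC and 2.03-fold in siPrp19. Together the 10 genes took 1.94%, 2.34% and 0.910% of the reads on genes in NC replicates 1, 2 and 3, and 1.96%, 2.33% and 0.939% in the siPrp19 replicates. In bulk RNA, fewer cells of a type and less RNA per cell cannot be told apart.

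**Figure D1:**
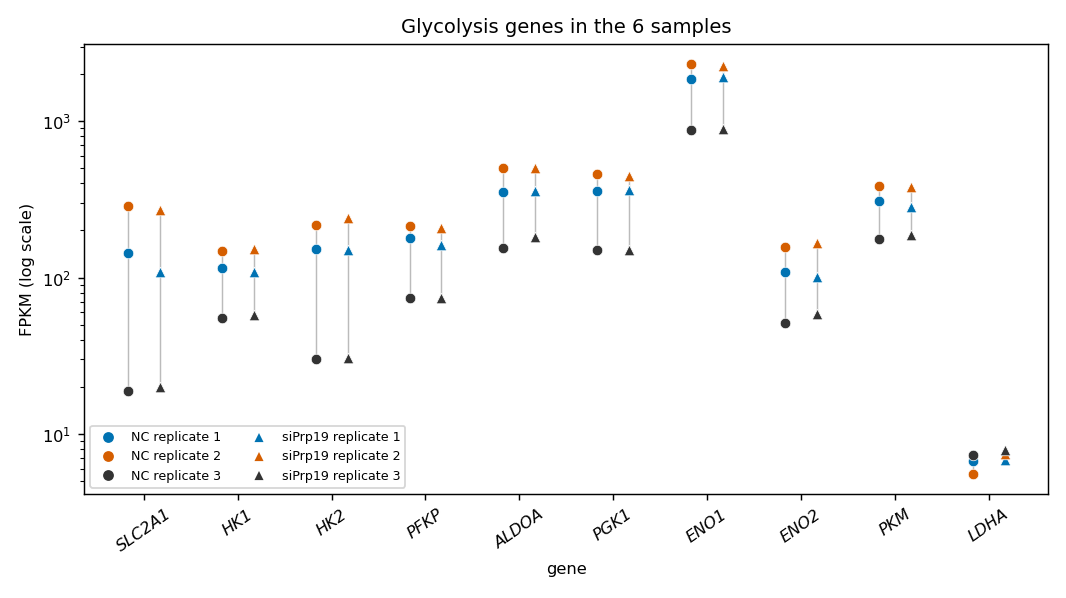
FPKM of the 10 genes (y axis, log scale) in the 3 NC samples (circles) and the 3 siPrp19 samples (triangles), coloured by replicate number, with a grey line from the lowest to the highest sample of each group. The replicate 3 points (dark) lie lowest in both groups for 9 genes, SLC2A1 falling to 18.8 and 20.1 FPKM, and LDHA lies between 5.58 and 7.85 FPKM in all 6 samples.

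SLC2A1 (ENSG00000117394, chromosome 1, 42925375 to 42959176, minus strand, hg38) encodes GLUT1, the transporter that brings glucose into most cells. Its level was 144, 286 and 18.8 FPKM in NC replicates 1, 2 and 3 and 108, 272 and 20.1 with siPrp19. Both replicate 3 samples were far below the other 4, and the NC and siPrp19 ranges overlapped almost completely. The fitted difference of replicate 3 minus 2 was -3.84 on the scale of log2(FPKM + 0.1), with a standard error of 0.13 (limma, adjusted p = 0.000246). Ordered from the largest drop, it ranked 29th of all genes tested. The replicate 2 minus 1 difference was 1.16 (95% interval 0.84 to 1.49, adjusted p = 0.0205 by limma), the widest of the 10 members.

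Hexokinases phosphorylate glucose on entry, HK1 being the widely expressed form and HK2 the form typical of muscle and tumours. HK2 (chromosome 2, 74833981 to 74893359, plus strand) was 153, 218 and 30.2 FPKM in NC and 149, 238 and 30.7 FPKM in siPrp19, again in the order of replicates 1, 2 and 3. HK1 (chromosome 10, 69269984 to 69401884, plus strand) was 115, 147 and 55.3 FPKM in NC and 108, 151 and 58.0 FPKM in siPrp19. Replicate 3 was lowest for both genes, but HK2 dropped further, by 2.90 log2 from replicate 2 (SE 0.06, adjusted p = 0.000209 by limma) against 1.40 for HK1 (SE 0.06, adjusted p = 0.000445). As a result the hexokinase with the higher FPKM changed with the replicate number. The ratio of HK2 to HK1 was 1.33 and 1.48 in NC replicates 1 and 2 and 1.38 and 1.58 in those of siPrp19, but 0.547 and 0.530 in the replicate 3 samples.

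PFKP, the platelet form of phosphofructokinase (chromosome 10, 3066333 to 3137712, plus strand), was 178, 215 and 74.4 FPKM in NC and 161, 209 and 74.0 FPKM in siPrp19. The replicate 3 samples of the groups were almost equal, and the difference of replicate 3 minus 2 was -1.51 log2 (SE 0.06, adjusted p = 0.000299 by limma). ALDOA, which cleaves fructose 1,6-bisphosphate (chromosome 16, 30064164 to 30070457, plus strand), was 353, 502 and 155 FPKM in NC and 356, 501 and 181 FPKM in siPrp19. PGK1, the first enzyme of the pathway to make ATP (chromosome X, 77910739 to 78129296, plus strand), was 359, 460 and 150 FPKM in NC and 361, 445 and 149 FPKM in siPrp19. Both again had replicate 3 lowest and replicate 2 highest, with replicate 3 minus 2 differences of -1.58 and -1.60 log2. PGK1 had the smallest residual of the 10 genes once replicate number and treatment were fitted, 0.0286% of its sum of squares.

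ENO1, the enolase of most tissues (chromosome 1, 8861000 to 8879250, minus strand), was the most abundant member at 1865, 2305 and 877 FPKM in NC and 1914, 2240 and 893 FPKM in siPrp19. It ranked 10th by mean FPKM among the genes tested. ENO2, the neuronal enolase used in pathology as neuron-specific enolase (chromosome 12, 6913745 to 6923698, plus strand), was 108, 156 and 51.5 FPKM in NC and 100.3, 166 and 58.7 FPKM in siPrp19. The enolases kept a similar proportion, ENO2 being 0.0524 to 0.0742 of ENO1 in the 6 samples. Their replicate 3 minus 2 differences were -1.36 (ENO1, SE 0.05) and -1.55 (ENO2, SE 0.08) log2, with adjusted p = 0.000287 and 0.000724 by limma.

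PKM, pyruvate kinase of muscle and tumours (chromosome 15, 72199029 to 72231822, minus strand), was 309, 387 and 177 FPKM in NC and 284, 379 and 187 FPKM in siPrp19. Its replicate 3 minus 2 difference of -1.07 log2 (SE 0.06, adjusted p = 0.000871 by limma) was the smallest of the 9 members that moved. The tables give a value per gene, so the PKM1 and PKM2 splice forms, which differ by a mutually exclusive exon, were not separated.

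LDHA (chromosome 11, 18394388 to 18408425, plus strand), which makes lactate from pyruvate, was 6.71, 5.58 and 7.37 FPKM in NC and 6.78, 7.40 and 7.85 FPKM in siPrp19. It was the lowest member by far, rested on 610 to 1209 reads per sample, and followed no shared order: NC was lowest in replicate 2 and siPrp19 in replicate 1. Replicate 3 minus 2 was 0.24 log2 (95% interval -0.05 to 0.53, adjusted p = 0.141 by limma). A voom fit on recovered reads gave 0.23 with an adjusted p of 0.0476, so the call for LDHA depends on the test. LDHB, the other main lactate dehydrogenase subunit, was 246 to 329 FPKM, and LDHA was 0.0184 to 0.0301 of it. The 6 LDHA pseudogenes in the tables reached at most 1.13 FPKM (LDHAP4), and reads that match LDHA and its copies equally could not be assigned here.

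By mean level the order of the members was ENO1, ALDOA, PGK1, PKM, PFKP, SLC2A1, HK2, ENO2, HK1 and LDHA. ENO1 exceeded ALDOA, PKM exceeded PFKP, and HK1 exceeded LDHA in 6 of 6 samples. The other neighbours changed places between samples: ALDOA was above PGK1, PGK1 above PKM, PFKP above SLC2A1 and HK2 above ENO2 in 4 of 6 samples, ENO2 above HK1 in 3 and SLC2A1 above HK2 in 2. Except for ENO2 and HK1, the order went with replicate number in the same way in both groups. ALDOA was below PGK1 in replicate 1, and PGK1 was below PKM and HK2 below ENO2 in replicate 3. SLC2A1 was above PFKP and HK2 in replicate 2 alone. The order by mean level of those 6 pairs therefore does not hold in each sample.

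In the limma F-test for replicate number, fitted with treatment as a term over all 14462 genes, 9 of the 10 members passed an adjusted p of 0.05, beside 49.6% of all genes tested. Their adjusted p-values were 0.000399 (HK2) to 0.00206 (PKM), against 0.243 for LDHA. With about 1 in 2 genes passing, the call itself does not set the members apart, and the size and direction of the difference say more. Replicate 3 was lower than replicate 2 for 9 of 10 members (24.5% of all genes), and lower by more than 1 log2 for the same 9 (5.3% of all genes). The same 9 passed for replicate 3 below replicate 1 (14% of all genes) and for replicate 2 above replicate 1 (12.4%). All 6 samples stood in the order replicate 3, then 1, then 2 in both groups for 9 of 10 members and for 17.2% of all genes. The median difference of replicate 3 minus 2 was -1.53 log2 over the 10 members and -0.00014 over all genes tested. The list of members was chosen with earlier results of these data known, so these comparisons with all genes are a description and no test.

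**Figure D2:**
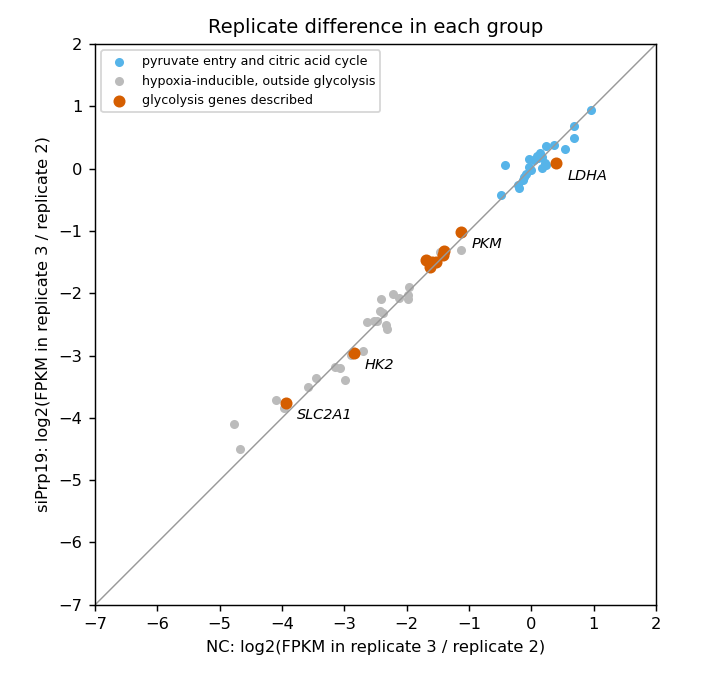
Difference between replicates 3 and 2 on the log2 FPKM scale within NC (x axis) and within siPrp19 (y axis), for the 10 members (orange), hypoxia-inducible genes outside glycolysis (grey) and genes of pyruvate entry and the citric acid cycle (blue); the diagonal marks equal differences. SLC2A1 and HK2 lie far down the diagonal among the hypoxia-inducible genes, and LDHA lies above 0 among the citric acid cycle genes.

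The x and y values of that plot come from different samples. Replicate number accounted for 98.9% (ENO2) to 99.96% (PGK1) of the sum of squares of the 9 moving members. For LDHA the share was 41.9%, and its limma F-test for replicate number did not pass (adjusted p = 0.243). Spread between single samples alone also gives a share above 0. The median share of replicate number over the members was 99.5%, beside 80.9% over all genes tested. The median share that went with treatment was 0.120%, beside 5.68%. The shares add up to the whole, so a large replicate share leaves little for treatment whatever the size of its difference. In log2, the median absolute treatment difference was 0.0501 for the members and 0.103 for all genes tested. The 36 correlations between the 9 members over the 6 samples lay between 0.967 and 1.00 (median 0.992), and those of LDHA with them between -0.661 and -0.593. These coefficients rest on 6 samples that share 3 replicate numbers and describe the replicate pattern again.

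Without the replicate 3 samples, a comparison chosen after the data had been seen, replicate 2 still differed from replicate 1 for 8 of 10 members, beside 17.6% of all genes tested.

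Knockdown of Prp19 was compared with NC in the same samples. Without regard to replicate number, limma called 0 of 10 members, beside 0% of all genes at an adjusted p under 0.05. At an unadjusted p under 0.05 it was also 0 of 10 members, beside 1.56% of all genes, and voom on recovered reads called 0 members. This comparison had little precision for the members, since the spread between replicates entered its error: the 95% interval for SLC2A1 ran from -3.12 to 2.86 log2 and that for HK2 from -2.29 to 2.37. The groups overlapped for each member, with exact two-sided permutation p-values of 0.2 (LDHA) to 1 (HK1 and ENO1), where 0.1 is the smallest possible. The share of all genes with overlapping groups was not computed, so the overlap does not set the members apart.

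Same-numbered samples deviated together, so siPrp19 was also compared with NC within pairs, with replicate number as a block. The intervals then narrowed, for SLC2A1 to -0.39 to 0.13 log2 around a difference of -0.13, and for HK2 to -0.08 to 0.17 around 0.04. The block fit called 0 of 10 members at an adjusted p under 0.05 (0% of all genes) and 0 of 10 at an unadjusted p under 0.05 (15.7% of all genes). Voom on recovered reads with the block had 2 of 10 at an unadjusted p under 0.05 (20.6% of all genes). At an adjusted p under 0.05 it had 0 of 10, beside 1012 of the 14432 genes it tested. PRPF19 itself was not called by limma: its difference was -1.04 log2, with an adjusted p of 1.00 without the block and of 0.19 with it (95% interval -1.27 to -0.82). A count of 0 members at the adjusted threshold of limma therefore says little, and the intervals carry the comparison. SLC2A1 was at 75.1%, 95.0% and 107% of NC in pairs 1, 2 and 3, so its pairs did not share a direction. PGK1 was at 100.3%, 96.7% and 99.6%, and ENO1 at 103%, 97.2% and 102%. ALDOA was at 101%, 99.8% and 117% and ENO2 at 92.9%, 107% and 114%, the third pair being the highest for both.

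PFKP was below NC in 3 of 3 pairs (90.5%, 97.2% and 99.5% of NC), as were 21.3% of all genes, with a fitted difference of -0.06 log2 (95% interval -0.18 to 0.05, adjusted p = 0.536 by limma). LDHA was above NC in 3 of 3 pairs (101%, 133% and 107%), as were 19.2% of all genes, with 0.17 log2 (-0.07 to 0.41, adjusted p = 0.44). No other member had the same sign in all pairs. Over the 10 members the block intervals reached from -0.39 (SLC2A1) to 0.41 (LDHA) log2 at their outer ends, the narrowest being those of PGK1 (-0.11 to 0.08) and ENO1 (-0.09 to 0.11). The median difference was 0.0069 log2 for the members and -0.0040 for all genes tested.

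**Figure D3:**
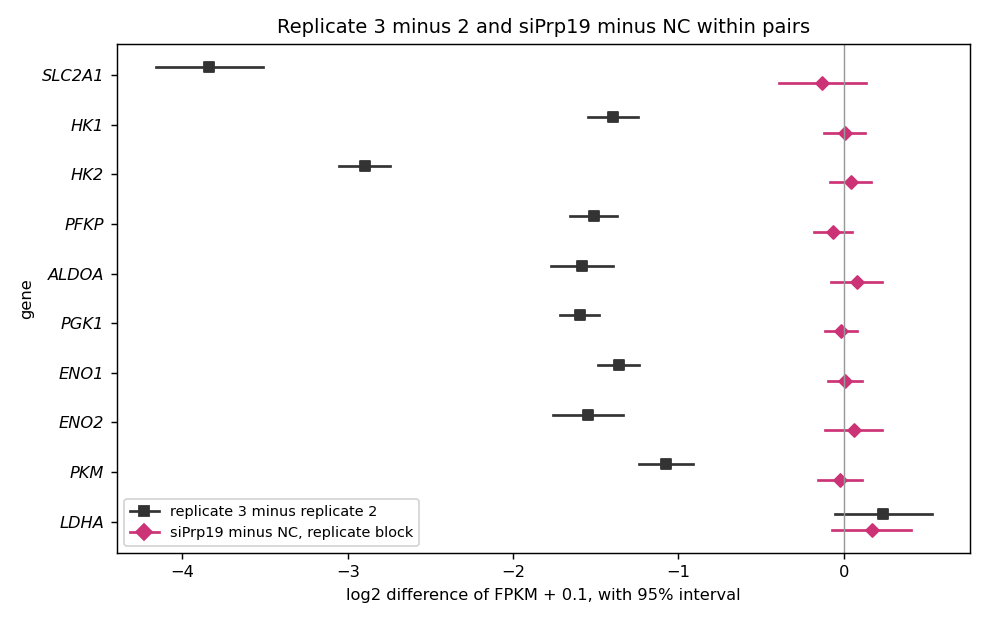
Fitted log2 difference (x axis) with its 95% interval for each of the 10 genes, for replicate 3 minus replicate 2 (dark squares) and for siPrp19 minus NC with the replicate block (pink diamonds). The 9 members other than LDHA lie between -3.84 and -1.07 for the replicate difference, while all 10 treatment intervals include 0.

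Of 21 other glycolysis enzymes listed, 13 were tested and 8 passed the F-test (61.5%, beside 49.6% of all genes). Replicate 3 was lower than 2 for 6 and higher for 0, with a median of -0.69 log2. ALDOC, the brain aldolase, was 91.0, 113 and 21.5 FPKM in NC and 97.7, 115 and 23.7 in siPrp19. GPI, which isomerises glucose 6-phosphate, was 159, 231 and 42.9 FPKM in NC and 146, 217 and 45.6 in siPrp19. Both dropped further than ALDOA, by 2.33 and 2.34 log2 between replicates 2 and 3, and the ratio of ALDOC to ALDOA was 0.139 and 0.131 in the replicate 3 samples against 0.226 to 0.274 in the others. GAPDH, a common reference gene in PCR, fell by 1.11 log2 (SE 0.05, adjusted p = 0.000492 by limma) and PGAM1 by 1.22. LDHB differed little between replicates (adjusted p = 0.111 in the F-test). It was 303 to 329 FPKM in NC and 246 to 274 FPKM in siPrp19, groups that did not overlap, with a block difference of -0.30 log2 (adjusted p = 0.19). LDHB and PGAM1 were named for the lowest p for treatment in the list.

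Of 16 other glucose and lactate transporters, 9 were tested and 7 passed the F-test (77.8%, beside 49.6% of all genes). Replicate 3 was lower than 2 for 5 and higher for 3. SLC2A3, the neuronal glucose transporter GLUT3, was 50.04, 99.5 and 5.38 FPKM in NC and 44.8, 127 and 7.17 FPKM in siPrp19, a replicate 3 minus 2 difference of -4.16 log2 (SE 0.15) beside -3.84 for SLC2A1. SLC16A3, the lactate exporter MCT4, was 39.3, 50.8 and 8.19 FPKM in NC and 35.9, 43.5 and 7.98 in siPrp19. SLC16A1, encoding MCT1, moved less, by -0.65 log2. SLC2A6 was higher in replicate 3 (6.71 and 6.59 FPKM) than in the other samples (2.31 to 3.78 FPKM).

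Regulators that set the flux through the pathway included some of the widest differences. Of 16 listed, 12 were tested and 9 passed the F-test (75%, beside 49.6% of all genes). Replicate 3 was lower than 2 for 6 and higher for 1. PFKFB3 and PFKFB4 make and degrade fructose 2,6-bisphosphate, the activator of phosphofructokinase. PFKFB3 was 151, 275 and 32.5 FPKM in NC and 134, 298 and 31.5 in siPrp19, and PFKFB4 was 30.9, 40.7 and 1.65 FPKM in NC and 26.3, 39.8 and 2.19 in siPrp19. PDK1, the kinase that switches off pyruvate dehydrogenase, dropped by 2.34 log2 between replicates 2 and 3 (SE 0.06). TXNIP, an inhibitor of glucose uptake whose gene responds to glucose, had the same order of replicates as the members, with 119, 229 and 35.9 FPKM in NC and 133, 273 and 47.2 in siPrp19.

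Hypoxia-inducible genes outside glycolysis were likewise lowest in replicate 3, and 23 of 26 were higher in replicate 2 than in 1 by limma (12.4% of all genes). All 26 listed were tested, and 26 passed the F-test (49.6% of all genes). The same 26 were lower in replicate 3 than in 2 (24.5%) and lower by more than 1 log2 (5.3%). Their median was -2.47 log2 beside -1.53 for the members. The list was chosen with earlier results of these data known, so these counts are a description and no test. VEGFA, the angiogenic growth factor, was 158, 241 and 20.2 FPKM in NC and 126, 222 and 19.6 in siPrp19. BNIP3, a mitophagy receptor, was 172, 189 and 33.9 FPKM in NC and 155, 178 and 32.7 in siPrp19. DDIT4, an inhibitor of mTORC1 signalling, and BHLHE40, a transcriptional repressor, dropped by 3.17 and 4.51 log2. CA9, the tumour carbonic anhydrase, was 14.7, 19.0 and 3.81 FPKM in NC and 19.9, 26.7 and 4.49 in siPrp19. As with the members, 0 of the 26 were called for treatment by limma with or without the block. An unadjusted block p under 0.05 was found for 8 (15.7% of all genes). The oxygen supply and the cell density of the cultures are not given in the sources used here, and their part in the pattern was not tested.

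**Figure D4:**
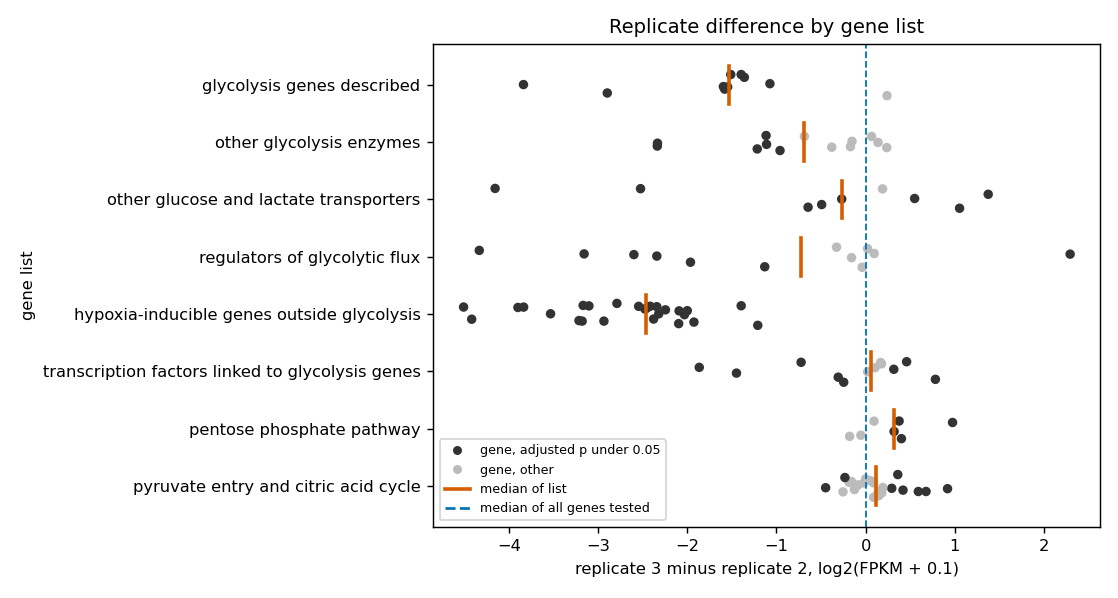
Replicate 3 minus replicate 2 on the log2(FPKM + 0.1) scale (x axis) for each tested gene of 8 lists (y axis), dark where the limma adjusted p was under 0.05, with the median of each list (orange bar) and of all genes tested (dashed line). The members and the hypoxia-inducible genes have medians of -1.53 and -2.47, whereas the citric acid cycle and pentose phosphate lists have medians of 0.11 and 0.32.

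The regulators of transcription linked to these genes went in both directions. Of 14 listed, 12 were tested and 8 passed the F-test (66.7%, beside 49.6% of all genes), with 5 lower and 3 higher in replicate 3. HIF1A mRNA, encoding the oxygen-regulated subunit of the hypoxia-inducible factor, was 41.5, 34.2 and 62.9 FPKM in NC and 35.2, 32.5 and 52.5 in siPrp19, highest in replicate 3 (0.78 log2 above replicate 2, SE 0.07, adjusted p = 0.00169 by limma). Its protein, through which oxygen acts, was not measured. ARNT, its partner, was highest in replicate 2 and fell by 0.72 log2 in replicate 3. MYC was 0.792 to 3.73 FPKM and highest in replicate 2 of both groups, whereas MYCN stood at 801 to 1215 FPKM, and its replicate 3 was 0.46 log2 above replicate 2 (adjusted p = 0.0292).

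The neighbouring pathways behaved differently from the members. All 24 genes of pyruvate entry and the citric acid cycle were tested, and 11 passed the F-test (45.8%), a share near that of all genes (49.6%). In replicate 3, 2 were lower and 6 higher than in 2, and 0 differed by more than 1 log2. Over all 14462 genes, 3543 were lower and 3311 higher. CS, citrate synthase, was 33.6 to 39.4 FPKM in NC and 40.9 to 42.7 FPKM in siPrp19, which did not overlap, with a block difference of 0.21 log2 (adjusted p = 0.215 by limma). Of the pentose phosphate genes, 7 of 8 were tested and 4 passed the F-test (57.1%), all 4 higher in replicate 3 than in 2. PGD, which oxidises 6-phosphogluconate, was 55.4 to 67.7 FPKM in NC and 47.7 to 69.1 FPKM in siPrp19, highest in replicate 3 of both groups (0.38 log2 above replicate 2, SE 0.08, adjusted p = 0.0148 by limma).

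The genes whose profiles over the 6 samples were most like the mean of the 10 members were NDRG1, BNIP3L, RPS18, EIF3L and CCNG2, with r from 0.999 to 1.00. NDRG1, a stress-responsive gene of the hypoxia list, was 195, 363 and 23.2 FPKM in NC and 164, 370 and 25.7 in siPrp19. RPS18, a ribosomal protein gene, had the same order with a much smaller range, 578 to 923 FPKM. The most opposite profiles were those of MRTFB, E2F1 and HS3ST2 (r of -0.999 to -0.998), E2F1 being 53.4 and 52.9 FPKM in the replicate 3 samples against 36.2 to 40.0 in the others. Among all genes outside the members, 939 had an r over 0.95, of which 153 were over 0.99, and 798 had an r under -0.95. These r values rest on 6 samples and on the shared replicate numbers.

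Counting was not the limit for 9 members, which rested on 1752 (SLC2A1) to 245723 (ENO1) reads per sample, so that counting alone gives an error of at most 2.39%. For SLC2A1, HK1, ALDOA and PGK1 the values were not whole multiples of a read with GENCODE 29 exon lengths, and their read numbers are approximate. The libraries are not stated to keep strand, and the antisense genes SLC2A1-AS1 and ENO1-AS1, which overlap member exons, reached 2.93 and 1.33 FPKM. AC019069.1, on the other strand, shares 7 bases with HK2 exons and reached 5.46 FPKM. ATP7A, on the same strand as PGK1, shares 1.76% of the PGK1 exon bases and reached 16.4 FPKM.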

How the data were processed

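Total RNA was converted to libraries with the NEBNext Ultra kit by a service company and sequenced. The authors deposited 1 FPKM table per sample, in which counts per gene were scaled to exon length and by a factor per sample. The submitters' processing notes name HISAT2 2.0.5, featureCounts 1.5.0-p3 and hg38. The annotation release is not given in the sources used here. Of 58302 identifiers, 58039 were found in GENCODE 29, and for 96.0% of the 37521 found genes above 0 the values were whole reads within 0.1 reads (a wider margin for very high counts). Fold changes are on the scale of log2(FPKM + 0.1), which understates those of low genes.

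Genes averaging 1 FPKM or more (14462) entered linear models in limma 3.58.1 under R 4.3.3, with moderated variances that followed a trend on expression. Benjamini-Hochberg adjustment ran over all of them. Median-of-ratios scaling left the values unchanged between samples. Its factor was 1.007 in all 6 samples, as for values already scaled in this way. Treatment was fitted without a block, since the study's methods name none, and with replicate number as a block. Replicate number was tested by an F-test with treatment in the fit. Numbers in the sample titles pair the samples: deviations from the group means correlated at r = 0.381, 0.568 and 0.639 in pairs 1, 2 and 3. Nothing beyond the study's term biological replicates says how separate the cultures were, so p-values measure the spread between these samples. Permutation tests used scipy 1.17.1. The fits were also run on simulated reads in which only a small set of genes differed by replicate number. In these data about 1 in 2 genes did, so the simulation does not show how the fits behave here.

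Members and gene lists were chosen with earlier results of these data known. Outside the members, the text names of each list up to 4 genes with the lowest p for replicate number and up to 2 with the lowest block p for treatment, and the 5 and 3 genes with the highest and lowest profile correlation; MYCN was added after its values were seen. Alternatives were pseudocount 1, no filter or a mean of 5 FPKM, TPM, quantile normalization, robust moderation, voom on recovered reads, each sample left out and, added later, both replicate 3 samples left out. Results for 2 of the genes that this rule names are not reported here.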

Additional observations from a re-analysis of the deposited data

How the results depend on the processing

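Under 18 other settings of the treatment comparison, 0 of 10 members were called in each, and under 15 settings of the replicate comparison 8 or 9 were called. The replicate 3 minus 2 difference of the 9 members other than LDHA kept its sign and its call in 126 of 126 values. The replicate block left the number of genes called for treatment at 0, with 2265 genes instead of 225 at an unadjusted p under 0.05. Over all genes, robust moderation called 1 gene for treatment, a mean of at least 5 FPKM with the replicate block 124 and voom with the replicate block 1012, none of them members. For replicate number, 7175 genes became 4214 with no filter on low values and 2542 without both replicate 3 samples. Leaving out 1 sample gave 4123 (without siPrp19 replicate 2) to 5563, and 4395 without NC replicate 2; a replicate number left with a lone sample is assumed to vary like the others. The causes were not tested.

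The sign of the small treatment differences of 9 members depended on single samples. Of 180 values under the settings, 33 had the opposite sign and 0 passed the threshold. Of the 33, 26 came from leaving out 1 sample, which unbalances the replicate numbers. The ranges over the left-out samples, in log2, were -1.27 to 0.90 for SLC2A1, -0.40 to 0.39 for HK1, -0.82 to 0.91 for HK2, -0.53 to 0.37 for PFKP, -0.40 to 0.49 for ALDOA, -0.50 to 0.46 for PGK1, -0.41 to 0.41 for ENO1, -0.38 to 0.44 for ENO2 and -0.35 to 0.25 for PKM. Quantile normalization gave -0.0504 for ENO1. Without both replicate 3 samples the values, with or without the block, were -0.0237 for HK1, -0.00199 for ENO1 and -0.00507 for ENO2. LDHA rests on 610 to 1209 reads.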

Other observations

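Genes that mark the state of neuroblastoma cells also differed between replicate numbers. DBH, which makes noradrenaline from dopamine, was 44.2, 30.0 and 3.49 FPKM in NC replicates 1, 2 and 3 and 41.9, 26.7 and 3.94 FPKM in siPrp19, so that replicate 3 was 2.90 log2 below replicate 2 (limma, adjusted p = 0.000246). Its highest samples were those of replicate 1, unlike the glycolysis genes. TH, the first enzyme of catecholamine synthesis, was 143 to 148 FPKM in replicate 3 and 194 to 242 FPKM in the other samples. Of the 12 adrenergic markers, 11 passed the F-test for replicate number (91.7%, beside 49.6% of all genes). Replicate 3 was lower than 2 for 9 (24.5% of all genes) and higher for 2. The difference was over 1 log2 for 1 of the lower and 1 of the higher markers, and the median was -0.34 log2. FN1, fibronectin, was 53.1, 67.9 and 28.6 FPKM in NC and 39.4, 54.6 and 23.3 FPKM in siPrp19, below NC in each pair, with a block difference of -0.35 log2 (adjusted p = 0.19 by limma).

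HBB, a haemoglobin gene, was 15.4 FPKM in NC replicate 1 and 3.10 FPKM or less in the other 5 samples, including a value listed at 0 in siPrp19 replicate 3.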
